A study of Saccharomyces cerevisiae with 10 samples.

Results

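The Set3 and Hda1 complexes are histone deacetylase complexes of the budding yeast Saccharomyces cerevisiae. Deletion strains of 9 of their genes were followed through a benomyl dose course, found by gene symbol in the array annotation among 5325 strains measured. The Set3 complex genes were SET3 (YKR029C), SNT1 (YCR033W), HOS2 (YGL194C), HOS4 (YIL112W), SIF2 (YBR103W), HST1 (YOL068C) and CPR1 (YDR155C). Those of the Hda1 complex were HDA1 (YNL021W) and HDA2 (YDR295C). All 9 strains had a value on every array, so no filter on missing values removed a member.

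Per the labels, 5896 heterozygous diploid knockout strains were pooled and sporulated, and MATa haploids were selected at 30 °C on magic medium, on which other cells do not grow, with or without benomyl, a drug that depolymerises microtubules. The DNA tags of each pool were amplified from genomic DNA, and the pool without drug (Cy5) was hybridised against the pool with drug (Cy3) on 1 array for each of 10 doses, 0, 1, 5, 10, 15, 20, 25, 30, 35 and 40 µg/ml, with a pool without drug in both dyes at 0 µg/ml. Selection lasted equally long for both pools of an array, 2 days for the 4 lowest doses, 3 days for 15 µg/ml and 4 days for the 5 highest, so that days rose with dose. Dose varied at a fixed number of days within the 2-day and within the 4-day arrays, while days never varied at a fixed dose. No dose had a second array, and nothing in the labels says which pools came from separate sporulations, so the p-values below measure only the scatter of single arrays.

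Deacetylases remove acetyl groups from lysines of histones and other proteins, and on chromatin this mostly goes with lower transcription. In the Set3 complex, Set3 carries a PHD finger that reads methylated histone H3, Snt1 is a scaffold, Hos2 and Hst1 are the deacetylases, Sif2 is a WD-repeat protein, Hos4 has ankyrin repeats and Cpr1 is a cyclophilin. The complex is known as a repressor of meiotic genes and as a modulator of the speed of gene induction, and it resembles the mammalian SMRT and N-CoR corepressors. In the Hda1 complex, Hda1 is the catalytic subunit and Hda2 a required partner, and the complex acts with the corepressor Tup1.

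Each value below is a log2 ratio with the median of the named spots of its array set to 0, averaged over the spots of a strain. The numerator is likely the pool grown without drug, from the dyes in the labels and the usual numerator of the image program. A positive value then means that drug left the strain scarcer than the median strain. With the opposite numerator all signs would turn. The spots of a strain lie in 2 sections of the array layout, which were taken to hold different tags of the strain, and most members had 1 spot in each. SIF2 and HST1 had 6 in each. The standard deviation across strains was 0.51 without drug and 1.46 at 40 µg/ml, so a given log2 value is less unusual at high dose. On the 10 µg/ml array 2.32% of deposited ratios were whole hundredths (within 0.001 hundredths), against 99.2% or more on the others, so that array was written in another way. Fewer cells of a strain and less tag signal per cell cannot be told apart in a pool.

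Of the 9 strains, SET3 and HST1 rose with dose and none fell, which is 2 of 9 at an adjusted p below 0.05 in limma's line against dose. In limma 10.3% of all strains rose, 9.13% fell and 19.4% did either, so the share of members called in either direction, 22.2%, was near the background. Without centring the arrays, 851 strains rose and 379 fell in limma, against 547 and 486 with it, and the median over all strains moved from 0.09 to 0.33. At an unadjusted p below 0.05 the count was 3 of 9, with CPR1 as the third, in the other direction. At that threshold 1000 of all 5325 strains rose and 775 fell. The median fitted log2 change from 0 to 40 µg/ml was 0.80 over the 7 Set3 complex strains and 0.31 over the 2 Hda1 complex strains, against 0.09 over all strains. Without the no-drug array these medians were 0.45 and 0.16. The Set3 median was 0.37 after quantile normalization, and the Hda1 median was 0.51 without the 35 µg/ml array.

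**Figure D1:**
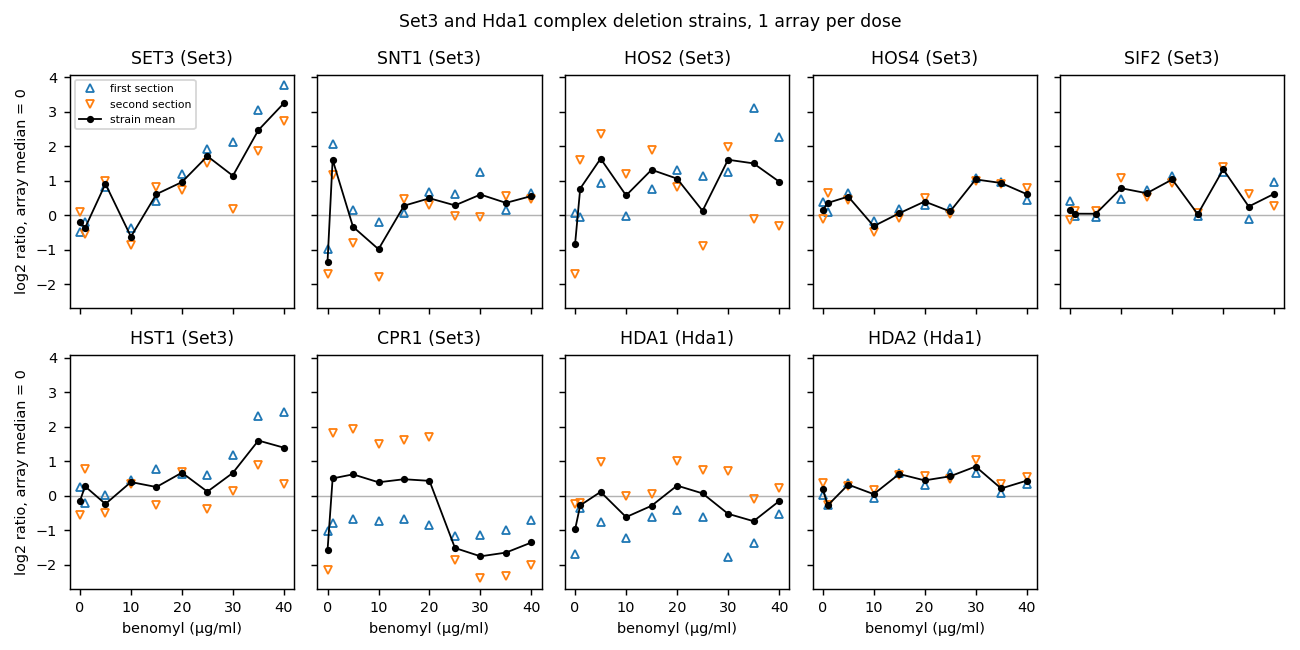
Log2 ratio of each deletion strain against benomyl dose in µg/ml, with the array median at 0. Black points and lines are the strain means and open triangles the 2 sections of the layout. SET3 climbs to 3.25 at 40 µg/ml, CPR1 drops between 20 and 25 µg/ml, and HDA2 stays within 0.85 of the median strain on all 10 arrays.

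The SET3 strain was at -0.19 without drug, -0.36 at 1, 0.91 at 5, -0.62 at 10 and 0.61 at 15 µg/ml. It was at 0.96 at 20, 1.72 at 25, 1.15 at 30, 2.47 at 35 and 3.25 at 40 µg/ml. SET3 thus lay on both sides of the median at low dose and at least 2-fold above it on the 4 arrays from 25 µg/ml up, and its 4-day values did not overlap its 2-day values. At 40 µg/ml only 1.92% of strains had a higher ratio. Its fitted change was 3.09 ± 0.52 (SE, n = 10 arrays, limma adjusted p = 0.00245), or 8.51-fold. Both sections of the layout were called on their own, at 3.90 ± 0.46 and 2.28 ± 0.67. They differed most at 30 µg/ml, where the first was at 2.12 and the second at 0.17.

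The call of SET3 was kept without any single one of the 10 arrays, at 2.66 to 3.42. It was lost with arrays scaled to equal spread, at 2.08 (limma adjusted p = 0.0522), with days as a covariate, at 3.32 (limma adjusted p = 0.151), and among the 4-day arrays alone, at 4.26 (limma adjusted p = 0.0754). Among the 2-day arrays alone the slope was -0.62 (limma adjusted p = 0.951), and the adjusted p ranged from 0.000666 to 0.951 over all alternatives.

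The HST1 strain, which lacks an NAD-dependent deacetylase of the sirtuin family, was between -0.23 and 0.40 on the 2-day arrays and at 0.26 at 15 µg/ml. It was then at 0.67 at 20, 0.12 at 25, 0.67 at 30, 1.60 at 35 and 1.40 at 40 µg/ml. Only the 35 and 40 µg/ml arrays were 2-fold above the median, and the 4-day values overlapped the 2-day values. The fitted change was 1.42 ± 0.34 (SE, n = 10 arrays, limma adjusted p = 0.0148).

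The change of HST1 was uneven between the sections. It was 2.30 ± 0.37 in the first (limma adjusted p = 0.00297) and 0.54 ± 0.48 in the second (limma adjusted p = 0.466). At 40 µg/ml the first section was at 2.44 and the second at 0.36, while the 6 spots within a section had standard deviations of at most 0.28 and 0.35 on any array. The gap between the sections was thus wider than the spread of repeated spots on that array. Without the 40 µg/ml array the call of HST1 was lost, at 1.33 (limma adjusted p = 0.0667), and so it was with equal spread, at 0.83, quantile normalization, at 0.87, and log2 dose, at 1.21. It was lost too with days as a covariate, at 2.15, and among the 4-day or the 2-day arrays alone, at 2.34 and 1.25. These values of the 4-day and 2-day arrays are slopes scaled to 0 to 40 µg/ml, as for SET3. The adjusted p of HST1 ranged from 0.00297 to 0.810 over all alternatives.

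HST1 also works in a second repressor, with the DNA-binding protein Sum1 and the linker Rfm1, which keeps middle sporulation genes off in growing cells. The SUM1 strain rose, with a fitted change of 1.67 ± 0.35 (SE, n = 10 arrays, limma adjusted p = 0.00751), and its sections were at 1.99 and 1.35. SUM1 was at -0.01 without drug, 1.30 at 10 µg/ml and 2.15 at 40 µg/ml. RFM1 had a fitted change of -0.44 ± 0.55, which did not pass (limma adjusted p = 0.610). The sections of RFM1 had opposite signs, at 0.38 and -0.81, and at 1, 10 and 15 µg/ml only 1 of them had a value.

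**Figure D2:**
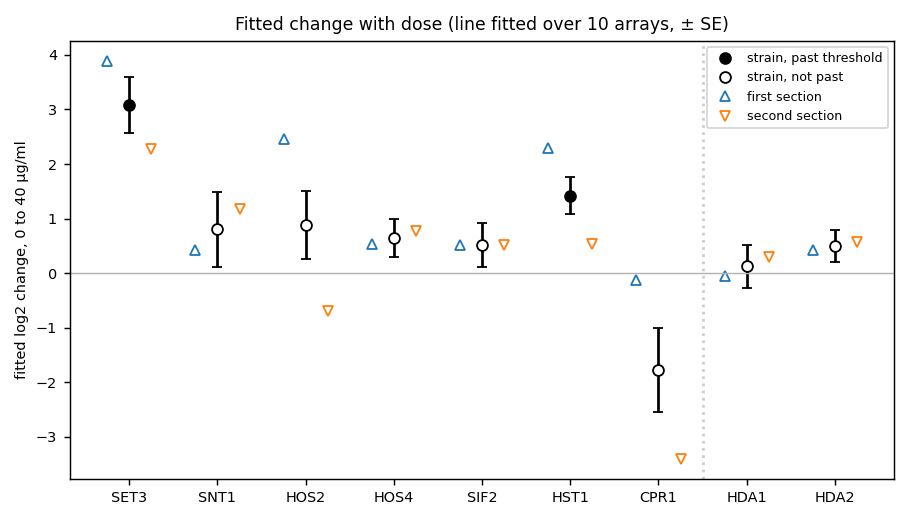
Each strain's fitted log2 change over the dose range with its SE (10 arrays), filled where it passed the adjusted threshold, and the fitted change of each section of the layout as open triangles. SET3 is high in both sections, which lie apart at 3.90 and 2.28. The sections of HOS2, HST1 and CPR1 lie apart as well.

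The other strains of the Set3 complex core, SNT1, HOS2 and SIF2, did not pass. HOS2, the zinc-dependent deacetylase of the complex, was at -0.82 without drug, 0.78 at 1, 1.64 at 5, 0.58 at 10 and 1.32 at 15 µg/ml. It was at 1.06 at 20, 0.13 at 25, 1.61 at 30, 1.51 at 35 and 0.98 at 40 µg/ml. The mean of HOS2 was thus above the median on all 9 arrays with drug, already at 1 and 5 µg/ml, and it did not climb further. On those 2 arrays 6.31% and 1.82% of strains had a higher ratio. At 1 µg/ml the sections were at -0.04 and 1.60, and they had the same sign on 4 of the 10 arrays. The fitted change of HOS2 was 0.88 ± 0.62 (SE, n = 10 arrays, limma adjusted p = 0.341), with a 95% interval from -0.47 to 2.24.

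The sections of HOS2 went apart. The first was called, at 2.47 ± 0.48 (limma adjusted p = 0.00670), and reached 3.10 at 35 µg/ml. The second was at -0.70 ± 1.17 (limma adjusted p = 0.708), with 2.35 at 5 µg/ml but -0.30 at 40 µg/ml. Only 6.37% of strains had sections further apart on average than HOS2, at 1.61 against a median of 0.52 over all strains. Without the no-drug array the fitted change of HOS2 was 0.17.

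SNT1, the scaffold strain, was at -1.34 without drug, 1.61 at 1, -0.33 at 5, -0.98 at 10 and 0.28 at 15 µg/ml. On the 5 arrays of 4 days it lay between 0.29 and 0.60. Its scatter was largest on the arrays of low dose, where the 2-day values had a standard deviation of 1.32 (n = 4 arrays) against 0.13 for the 4-day values (n = 5 arrays). The fitted change was 0.80 ± 0.69 (SE, n = 10 arrays, limma adjusted p = 0.446). It was called, at 1.71 (limma adjusted p = 0.0279), only without the 1 µg/ml array, and was 0.18 without the no-drug array, while the adjusted p ranged from 0.0279 to 0.939 over all alternatives.

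SIF2, whose product resembles the mammalian corepressor subunit TBL1, was above the median on all 10 arrays in the mean of its spots. This mean ran from 0.03 at 25 µg/ml to 1.33 at 30 µg/ml with a median of 0.44. The sections of SIF2 had the same sign on 5 of the 10 arrays, and how many of all strains were above on every array was not counted. Its fitted change was 0.52 ± 0.41 (SE, n = 10 arrays, limma adjusted p = 0.395), and its sections were both at 0.52. Without the 30 µg/ml array the change of SIF2 was 0.30, and after quantile normalization it was 0.13. HOS4, the ankyrin-repeat subunit, ranged from -0.31 at 10 µg/ml to 1.04 at 30 µg/ml, with 9 of 10 arrays above the median. The fitted change of HOS4 was 0.65 ± 0.35 (SE, n = 10 arrays, limma adjusted p = 0.217), and its sections were at 0.53 and 0.77. Both strains were 2-fold above the median on the 30 µg/ml array, and SIF2 also at 20 µg/ml.

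Counted by array, the Set3 complex strains at least 2-fold above the median were 1 of 7 at 1, 5 and 15 µg/ml, where 3.91%, 6.29% and 4.3% of all strains were. The one at 1 µg/ml was SNT1 and the one on the other 2 arrays was HOS2. At 20 µg/ml there were 2 (5.71% of all strains), at 25 µg/ml 1 (10.6%) and at 30 µg/ml 4 (11.1%), namely SET3, HOS2, HOS4 and SIF2. At 35 µg/ml 3 strains were so high (14.8%), then 2 at 40 µg/ml (19.3%), so the count was highest below the top dose.

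CPR1, which encodes cyclophilin A, a prolyl isomerase and the target of cyclosporin in yeast, followed a course of its own. It was at -1.58 without drug, 0.51 at 1, 0.62 at 5, 0.39 at 10, 0.48 at 15 and 0.44 at 20 µg/ml. It was then at -1.51 at 25, -1.75 at 30, -1.64 at 35 and -1.35 at 40 µg/ml. The strain was more than 2-fold below the median on 5 arrays, of which 1 had no drug in either pool, and above the median on the other 5, which had 1 to 20 µg/ml of drug. On the arrays from 25 µg/ml up, 9.88%, 12.5%, 14.3% and 18.1% of all strains were as far below.

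The step of CPR1 was seen in 1 section of the layout. In the second section it was between 1.51 and 1.93 on the arrays of 1 to 20 µg/ml and between -2.38 and -1.85 on those of 0 and 25 to 40 µg/ml. In the first it was between -1.17 and -0.66 on all 10 arrays. The fitted change was -1.77 ± 0.77 (SE, n = 10 arrays, limma adjusted p = 0.133), at -3.41 ± 1.43 in the second section and -0.13 ± 0.26 in the first. Without the no-drug array CPR1 was called, at -2.78 (limma adjusted p = 0.00930), and the adjusted p ranged from 0.00930 to 0.776 over all alternatives. Whether the sign switch of that section belongs to the CPR1 strain, to its tag or to the handling of the arrays was not tested, so the mean of CPR1 and its call without the no-drug array carry this limit. Of 7 measured strains in the list of other cyclophilins and FPR1, 1 fell and none rose, with a median change of -0.06. The one that fell was CPR4, a cyclophilin of the secretory pathway, at -1.30 ± 0.24 (limma adjusted p = 0.00386).

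Neither Hda1 complex strain passed, and neither was 2-fold away from the median on any array. On single arrays 6.25% of all strains were so far away without drug and 37.4% at 40 µg/ml. The share of all strains within 2-fold on every array was not counted. HDA1, the catalytic subunit, was at -0.97 without drug, between -0.61 and 0.12 at 1 to 15 µg/ml, and at 0.30, 0.07, -0.52, -0.73 and -0.15 from 20 to 40 µg/ml. Its fitted change was 0.12 ± 0.39 (SE, n = 10 arrays, limma adjusted p = 0.853), with a 95% interval from -0.73 to 0.98. The first section of HDA1 was below 0 on all 10 arrays, from -1.77 to -0.34, and the second lay between -0.24 and 1.01, so the sections were offset from each other on every array.

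HDA2 ranged from -0.27 at 1 µg/ml to 0.85 at 30 µg/ml, with 9 of 10 arrays above the median, and its fitted change was 0.50 ± 0.30 (SE, n = 10 arrays, limma adjusted p = 0.269). Its 95% interval ran from -0.16 to 1.15. Without the 1 µg/ml array the change of HDA2 was 0.29, and after quantile normalization it was 0.28. HDA2 had the closest sections of the 9 strains, at a mean gap of 0.21, and they were at 0.43 and 0.57. The root mean square difference between HDA1 and HDA2 over the 10 arrays was 0.78, and HDA2 ranked 2665 among the strains closest to HDA1.

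With no drug in either pool, CPR1, SNT1, HDA1 and HOS2 were the 4 lowest of the 9 strains. HOS2, the highest of the 4, was at -0.82, and 324 of all 5325 strains were lower still. CPR1 and SNT1 were more than 2-fold below the median, as were 3.83% of all strains. HOS2, CPR1 and HDA1 were also the 3 members with the widest gaps between sections, at mean gaps of 1.61, 1.80 and 1.25. Without that array the fitted change of HDA1 was -0.21, beside the values given above for the other 3. The part of the section gaps in these low values was not tested.

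The second comparison set the 5 arrays of 4 days against the 4 arrays of 2 days. No member passed in limma, where 0.864% of all strains were higher, 0.263% lower and 1.13% either. SET3 and HST1 were the 2 members with an unadjusted p below 0.05, and at that threshold 585 of all 5325 strains were higher and 453 lower. SET3 was at 1.91 ± 0.95 (SD, n = 5 arrays) on the 4-day and at -0.06 ± 0.67 (SD, n = 4 arrays) on the 2-day arrays. The difference for SET3 was 1.97 ± 0.50 (SE, limma adjusted p = 0.0852), and it passed without the 20 µg/ml array, at 2.21 (limma adjusted p = 0.0256, with 0.0256 to 0.231 over all alternatives). For HST1 the difference was 0.82 ± 0.32 (SE, limma adjusted p = 0.201). SET3 was the 1 member whose 4-day and 2-day arrays did not overlap, and it was higher at 4 days. Of all strains 4.02% were higher without overlap, 2.42% lower and 6.44% either. CPR1 was the 1 member with a negative difference, at -1.15 ± 0.56 (SE, limma adjusted p = 0.290).

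Whether the 9 strains differed among themselves was tested pair by pair, within and between the complexes. The measure was the slope of the difference between 2 strains, with doses permuted over the arrays (two-sided permutation test, 100000 permutations, adjusted over 36 pairs). This test was chosen after the values were seen. Of the 36 pairs 5 passed, and 4 of these held SET3. Pairs of other strains were not tested, so this count has no background. Permuting doses treats the arrays as alike in spread, while the spread across strains rose with dose. With arrays scaled to equal spread 0 pairs passed, and 4 had an unadjusted p below 0.05. The fitted change of SET3 exceeded that of HOS4 by 2.44 (permutation adjusted p = 0.0319) and that of CPR1 by 4.86 (permutation adjusted p = 0.0320). It exceeded those of HDA1 and HDA2, strains of the other complex, by 2.96 and 2.59 (permutation adjusted p = 0.0166 and 0.0319). The fifth pair was HOS2 over CPR1, at 2.65 (permutation adjusted p = 0.0333).

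SET3 exceeded SNT1, HOS2, SIF2 and HST1 by 2.29, 2.21, 2.57 and 1.67, which did not pass (permutation adjusted p = 0.113 to 0.116). The number of pairs that passed was 12 without the no-drug array, 3 without the 5 µg/ml array and 2 without the 25 µg/ml array. It was 0 without the 1, the 15, the 35 or the 40 µg/ml array, with 10, 11, 6 and 6 pairs at an unadjusted p below 0.05. HDA1 and HDA2 differed by -0.37 (permutation adjusted p = 0.628).

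**Figure D3:**
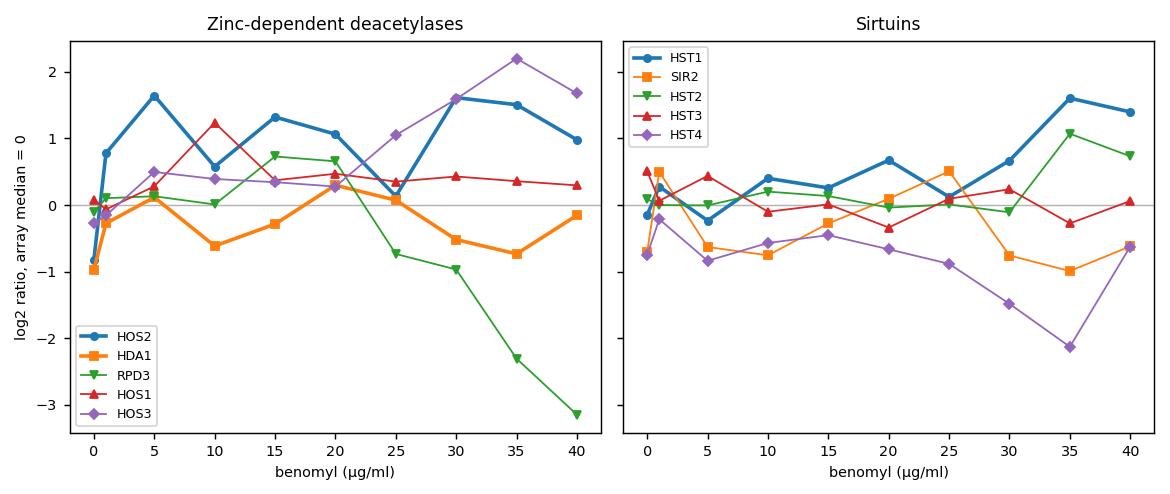
Log2 ratio against benomyl dose in µg/ml for strains lacking a zinc-dependent deacetylase (left) or a sirtuin (right), with each array's median at 0 and thick lines for HOS2, HDA1 and HST1. RPD3 reaches -3.15 at 40 µg/ml, HOS3 reaches 2.20 at 35 µg/ml and HDA1 stays within 0.97 of the median.

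The deacetylases were set side by side with the 7 others of yeast. Of these 1 rose, 1 fell and 5 did not pass, with a median fitted change of -0.34. HOS3, a zinc-dependent enzyme that acts as a homodimer and not in these complexes, rose by 2.13 ± 0.34 (limma adjusted p = 0.00205), with both sections alike at 2.06 and 2.20. RPD3, the catalytic subunit of the Rpd3 complexes, fell, with a change of -2.79 ± 0.69 (limma adjusted p = 0.0167). HOS2, HDA1 and RPD3, the catalytic subunits of 3 complexes, were at 0.98, -0.15 and -3.15 on the 40 µg/ml array. HOS1, which deacetylates cohesin, was at 0.13 ± 0.35, and the sirtuin strains SIR2, HST2, HST3 and HST4 had changes between -0.89 and 0.64.

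In the large Rpd3 complex 10 of 12 strains fell, with a list median of -2.53. Beside RPD3 these lacked SIN3, SDS3, PHO23, SAP30, RXT2, RXT3, DEP1, UME1 or UME6, and their changes lay between -4.21 for SDS3 and -1.97 for UME6. The fall of DEP1 was seen in its first section, at -4.11 ± 0.73, and not in its second, at -0.38 ± 0.66 (limma adjusted p = 0.722). Of the 2 subunits listed for the small Rpd3 complex, EAF3 rose by 2.73 ± 0.53 (limma adjusted p = 0.00499), and RCO1 was at -0.10 ± 0.60. EAF3 encodes a chromodomain protein that is shared with the NuA4 acetyltransferase. Among the partners of Sir2 in silencing, SIR3 rose by 3.33 ± 0.48 (limma adjusted p = 0.00116), and SIR1 and SIR4 did not pass, at 0.91 ± 0.34 and -0.50 ± 0.45. The first section of SIR1 was called on its own, at 2.36 ± 0.50 (limma adjusted p = 0.00959). The second was not, at -0.51 ± 0.36 (limma adjusted p = 0.345).

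COMPASS writes the methyl marks on histone H3 that the Set3 PHD finger reads. Of its 6 measured strains 1 rose, 1 fell and 4 did not pass, with a median of -0.55. SPP1, the subunit with a PHD finger, rose by 1.10 ± 0.29 (limma adjusted p = 0.0205) and SDC1 fell, with a change of -2.19 ± 0.65 (limma adjusted p = 0.0359). The second section of SDC1 did not pass on its own, at -2.29 ± 0.94 (limma adjusted p = 0.120). The corepressor strains TUP1 and CYC8, whose products work with the Hda1 complex, were at 0.73 ± 0.61 and 0.41 ± 1.25 and did not pass. The sections of TUP1 had opposite signs, at -1.90 and 3.36.

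As a background served 40 genes essential in haploids, of which 39 were measured. TIM12 alone fell, at -7.32 ± 0.94 (limma adjusted p = 0.000586), none rose, and the median change was -0.03. The lowest value of this list at 40 µg/ml, -6.81, was at the floor of the ratio on that array. Without drug 3 of these strains were at least 2-fold above the median and 7 below, while 6.25% of all strains were 2-fold off in either direction.

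**Figure D4:**
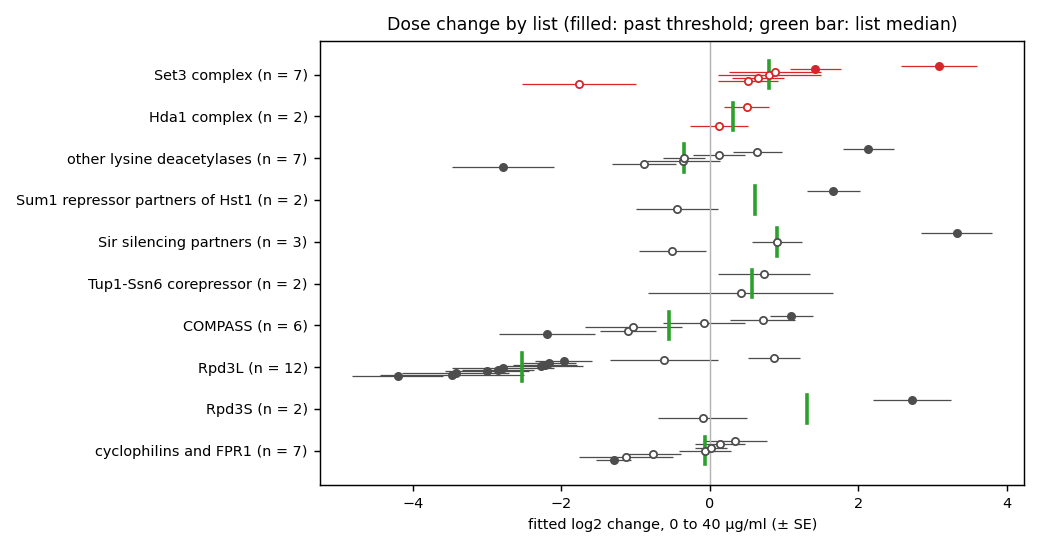
Each point is 1 measured strain of 10 lists, at its fitted log2 change over the dose range with its SE, filled where it passed the adjusted threshold, with the list median as a green bar. RPD3 stands in 2 lists. The Set3 complex has its median at 0.80 and the Hda1 complex at 0.31 (0.45 and 0.16 without the no-drug array), and the large Rpd3 complex at -2.53.

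The course of the Set3 core, taken as the median of SET3, SNT1, HOS2 and SIF2 on each array, was at -0.50 without drug and 0.80 at 40 µg/ml. The 5 other strains closest to it over the 10 arrays lacked MRPS28, TDA8, UGX2, MGR2 and SHH3, at root mean square differences of 0.33 to 0.37, against a median of 0.90 over 5322 strains. Of the complex itself, HOS4 ranked 3 in closeness, SIF2 61, HST1 143 and HOS2 459, while SNT1 ranked 1488, SET3 3493 and CPR1 4676. Of the Hda1 complex, HDA2 ranked 144 and HDA1 2981. These ranks are a description, since the course is made from 4 of these strains, and none of the pairs among the 4 passed the test of their slopes. Around the median course of HDA1 and HDA2, which lay between -0.39 and 0.37, the 5 closest were SPE2, TUF1, FLO1, STR2 and RTC2, at 0.19 to 0.20.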

How the data were processed

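The authors deposited 1 log2 ratio for each spot of the 10 arrays. Per the labels' descriptions, the authors scanned with a GenePix 4000B and read images with GenePix 5.1. The numerator and any normalisation are not given in the sources used here. The ratio has a floor of 0.01, which no spot of the 9 strains reached. Spots were named through the platform annotation (18794 spots, 5325 genes), with symbols updated by gene number to the R64 RefSeq table for 5321 genes. The median of the named spots was subtracted on each array, 17 coded values (a ratio near 999999) were set to missing, and spots were averaged per gene. Strains with at least 8 arrays were kept.

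Lines against dose and the 4-day minus 2-day contrast (at least 7 arrays) were fitted over all 5325 strains with limma 3.58.1 in R 4.3.3 (lmFit, eBayes), with Benjamini-Hochberg adjustment over all strains at 0.05. The scripts were tested on simulated data. The number of arrays limits the precision. Members and lists were chosen with earlier results of these data known, and 1 item is not reported here. All 9 members were named, and of the other lists the strains that passed, with the 5 strains closest to each complex's course. A list's counts and median stand beside those of all strains, with no set test. Other strains are named for context, chosen after their values were seen. Alternatives changed the scaling, averaging of spots, section, filter, dose scale, covariate and arrays used.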

Additional observations from a re-analysis of the deposited data

Results flagged for a closer look

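Among the arrays of equal selection length, 3 values of single strains lay far from the others by Dixon's criterion, over 18 groups examined. The criterion's rate of about 1 in 20 is for repeats. These arrays differ in dose and are not repeats, so that rate gives no expected count here. The share of such values over all strains was not counted. CPR1 was at -1.58 on the no-drug array, below the other 3 arrays of 2 days, and at 0.44 on the 20 µg/ml array, above the other 4 arrays of 4 days. SIF2 was at 0.79 on the 10 µg/ml array, above the other 3 arrays of 2 days.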

How the results depend on the processing

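In limma 547 strains rose and 486 fell with dose. The rises were 851 on ratios as deposited, 55 with equal spread, 111 after quantile normalization, 232 against log2(dose + 1), 157 with days as a term, 93 for the 4-day arrays alone and 0 on the 2-day arrays (199 at an unadjusted p below 0.05), and the falls were 38, 144, 260, 182, 157 and 0 (320 unadjusted) in the same order from equal spread on. Of the 9 members, 2 rose, against 1 after quantile normalization, in the second section alone and against log2(dose + 1), and 0 with equal spread (2 unadjusted), days as a covariate (2 unadjusted), the 4-day arrays (1 unadjusted) or the 2-day arrays (0 unadjusted). The Hda1 median of 0.31 was -0.59 with days as a term, -0.83 for the 4-day and 0.58 on the 2-day arrays. The signs of members that turned were those of SNT1 (-0.63), HDA1 (-0.95) and HDA2 (-0.23) with days as a term, SIF2 (-0.49), HDA1 (-1.37) and HDA2 (-0.30) on the 4-day arrays, and SET3 (-0.62), SNT1 (-3.67), HOS4 (-1.94) and CPR1 (5.02) on the 2-day arrays. HDA1 also turned in the first section (-0.054) and HOS2 in the second (-0.70, and -0.55 for 4 minus 2 days). Between 4-day and 2-day arrays 46 strains were higher and 14 lower, against 21 and 2 with equal spread, 21 higher after quantile normalization, 21 and 3 in the first section, 11 and 1 in the second, 4 and 0 (414 unadjusted) with a trended robust prior, 84 and 38 with the 3-day array among the 2-day arrays, and 8 and 1 with it among the 4-day arrays. The 5 pairs with different slopes were 16 in the first section and 0 with equal spread (4 unadjusted), quantile normalization (5 unadjusted), the second section (8 unadjusted) and log2(dose + 1) (4 unadjusted). Without 1 array at a time, the rises were 314 to 614 and the falls 308 to 545, members that rose 1 to 3 and that fell 0 to 1, strains higher at 4 days 4 to 279 and lower 0 to 216, members called there 0 to 1, pairs 0 to 12, and the change of HDA1 -0.21 to 0.36. Without the 20 µg/ml array the 4-day counts were 279 and 216. The cause was not tested in these cases. No paired analysis was possible because each dose has 1 array and the labels give no replicate numbers.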
